A study of Mus musculus with 21 samples.

Results

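Chemically induced pluripotent stem cells (CiPSC) are fibroblasts turned into pluripotent cells by small molecules, without introduced reprogramming genes. The series holds 7 of its 21 libraries from such lines, 1 library per line, and the lines bear the names C1 to C3, G1 and G3, and N4 and N6. The 3 lines named C were set against the 4 lines named G or N. What the letters stand for is not given in the sources used here. All 7 lines, and the embryonic stem cell library ESC-1, have the strain C57BL/6J-Tg(GOFGFP)11Imeg/RbrcxICR. ESC-2 has the strain C57BL/6 (B6)N, and both ESC lines came from E3.5 embryos. No treatment, passage or age differs between the lines in the labels. The ESC libraries are shown as a pluripotent reference and did not enter the test. Because each line is 1 library, the SDs and the p-values of C lines against G and N lines together measure the spread between lines. Culture and line cannot be told apart. In fits against the G or N lines alone, the spread is that between lines of the same letter. Fits with further libraries also use the spread within their groups. All p-values take the lines as independent, although the G lines and the N lines each paired by letter in expression. The sources used here do not say whether the lines shared a founder population or a culture day.

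Mouse pluripotent cells rest on the transcription factors Pou5f1, Nanog and Sox2, and cells in the naive state also hold Klf4, Esrrb, Tbx3 and Zfp42. Cultures are not uniform: signalling through FGF and ERK pushes cells out of the naive state, a small and transient share of cells turns on genes of the two-cell embryo such as Zscan4, and many germ cell genes are held down by DNA methylation at their promoters to an extent that varies with culture. Imprinted genes, which are read from 1 parental copy, are known to differ between induced pluripotent lines.

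Expression was given as FPKM, a measure of fragments per gene that is corrected for gene length and sequencing depth, and differences are on the log2(FPKM + 1) scale, C lines minus G and N lines, which understates the change of genes with low FPKM. The depth of the 7 libraries, estimated from values that rest on 1 fragment and taken relative to ESC-1, was 1.11, 1.2 and 0.403 in C1, C2 and C3, against 1.41, 1.3, 1.58 and 0.806 in G1, G3, N4 and N6. C3 was thus the shallowest of the 7, and the part of depth in the results below was not tested. All 8 pluripotent markers reached 1 FPKM in all 7 lines, and their summed level was 4353 to 5421 FPKM in C lines, against 4719 to 5307 FPKM in G and N lines. The XEN markers Gata4, Gata6, Sox17, Sox7, Foxa2 and Pdgfra together came to 3.56 to 7.90 FPKM in C lines, against 1.86 to 5.73 FPKM in G and N lines. The Y genes Ddx3y, Eif2s3y, Kdm5d and Uty were listed at 0 in C1 and were detected in the other 6 lines and both ESC libraries. Xist stayed at 0.275 FPKM or less in every line. Genes on X and Y were left out of the test for this reason.

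C1 and C2 were close to each other and C3 stood apart from both. Over the 13530 tested genes, the correlation of log2(FPKM + 1) was 0.976 between C1 and C2, but 0.943 between C3 and C1 and 0.933 between C3 and C2. C3 was as near to the G and N lines, with 0.945 to 0.950. The other lines paired by letter, with 0.969 between G1 and G3 and 0.976 between N4 and N6. Pairs of lines share the same genes, so these values are descriptions without a test. On the first principal component, with 38.3% of the variance, C1 and C2 scored -36.3 and -44.3 and C3 scored 14.0, against -4.70 and -3.38 in the G lines and 39.4 and 35.3 in the N lines. C3 alone was high on the second component, at 52.8, where the other lines lay between -14.9 and 3.16.

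**Figure D1:**
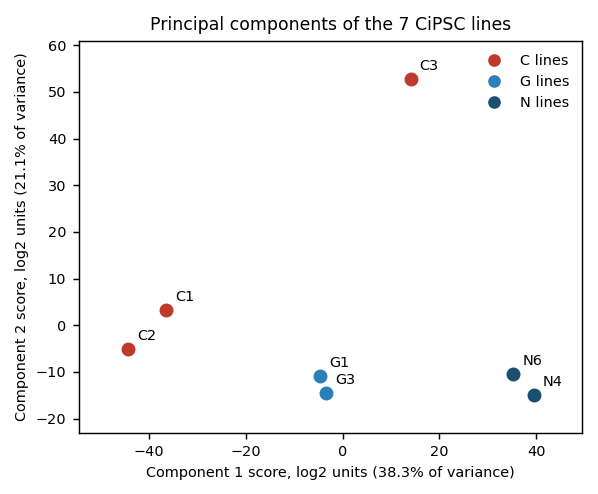
Scores of the 7 CiPSC lines on the first and second principal components of log2(FPKM + 1), 1 point per line, coloured by the letter of the line name. C1 and C2 lie at -36.3 and -44.3 on the horizontal axis, the G lines near the middle and the N lines at 39.4 and 35.3, and C3 is alone at 52.8 on the vertical axis.

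Few genes were called between the 3 C lines and the other 4. With limma and Benjamini-Hochberg adjustment, 20 of 13530 genes (0.148%) passed an adjusted p under 0.05 with a log2 difference of at least 1, of which 11 were higher (0.0813%) and 9 lower (0.0665%) in C lines. Of these 20, 13 were protein-coding genes and 7 were pseudogenes, noncoding transcripts or models without a class. The median difference over all tested genes was -0.01. The groups did not overlap for 1012 genes in the higher direction (7.48%) and for 992 genes in the lower direction (7.33%), and an unadjusted p under 0.05 was reached by 15.7% of all tested genes, 8% in the higher and 7.66% in the lower direction. The number of calls depended on which lines were in the fit: without C3, 153 genes were higher and 146 lower in C lines (2.21% in all). Leaving out C1 gave 3 higher and 0 lower, C2 gave 4 and 2, G1 gave 7 and 3, G3 gave 16 and 7, N4 gave 5 and 2, and N6 gave 5 and 4. Without C1, limma left 547 genes with an unadjusted p under 0.05 in the lower direction.

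Tpm3-rs7, a tropomyosin 3 related sequence, was the called gene with the lowest adjusted p. It is annotated on mm10 at chr14:113314608-113316713, and had 59.6, 59.1 and 59.0 FPKM in C1, C2 and C3, against 10.2, 9.73, 8.15 and 7.85 FPKM in G1, G3, N4 and N6, and 13.2 and 14.9 FPKM in ESC-1 and ESC-2. The C lines were alike and lay far above all 6 other libraries. The log2 difference was 2.60 ± 0.12 (SE, adjusted p = 0.000284, limma), and the call held in all 22 alternatives. Reads of this copy can be shared with Tpm3 itself, which averaged 260 ± 15.7 FPKM in C lines and 215 ± 23.8 FPKM in G and N lines (SD, n = 3 and 4), so its level is uncertain. The processed pseudogene Gm8730 had the same form, with 150 ± 39.6 FPKM in C lines, 17.6 ± 1.71 FPKM in G and N lines, and 17.7 and 17.3 FPKM in ESC-1 and ESC-2.

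Clgn, which encodes calmegin, a chaperone of the endoplasmic reticulum known from male germ cells, was also higher. Its levels were 5.61, 6.69 and 5.91 FPKM in C1, C2 and C3, against 1.48, 1.84, 1.66 and 1.72 FPKM in G1, G3, N4 and N6. The groups did not overlap, and the log2 difference was 1.40 ± 0.14 (SE, adjusted p = 0.0168, limma). The ESC libraries differed here, with 5.87 FPKM in ESC-1 and 2.52 FPKM in ESC-2. Rsrp1 had 82.2, 78.1 and 93.9 FPKM in the C lines, against 34.0, 41.7, 44.9 and 44.2 FPKM in the G and N lines, and 69.5 and 70.2 FPKM in the ESC libraries (log2 difference 1.03 ± 0.13, adjusted p = 0.0366). For Rsrp1 both ESC libraries lay nearer to the C lines.

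Other called genes that were higher in C lines had low levels or uncertain models, and lie outside the naming rule. Cyp2b23 and Obox6 passed the filter on low values only through the C lines. Cyp2b23, a cytochrome P450 gene, had 4.96 ± 1.12 FPKM in C lines and 0.393 ± 0.264 FPKM in G and N lines. Obox6, an oocyte-specific homeobox gene, had 3.99 ± 0.952 FPKM in C lines and 0.494 ± 0.211 FPKM in G and N lines, and 0.724 and 24.9 FPKM in ESC-1 and ESC-2. The remaining higher calls were the noncoding transcripts AI662270 and RP23-333I7.1, the small nucleolar RNA Gm25791, the pseudogene Gm4222 and the model Gm5989. Of these, RP23-333I7.1, Gm25791 and Gm4222 also passed the filter on low values only through the C lines. ESC-1 lay nearer to the C lines for 5 of the 11 higher genes, and ESC-2 for 4 of the 11.

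Among the genes lower in C lines, Gli2, Dlgap3 and Tesc had similar patterns. Gli2, a transcription factor of Hedgehog signalling (mm10 chr1:118834132-119053619), had 7.91, 7.65 and 6.53 FPKM in C1, C2 and C3, against 17.4, 17.7, 22.9 and 18.0 FPKM in G1, G3, N4 and N6. The groups were wide apart, with a log2 difference of -1.25 ± 0.14 (SE, adjusted p = 0.0240, limma). ESC-1, at 7.16 FPKM, was like the C lines, and ESC-2, at 15.4 FPKM, was nearer to the others. Dlgap3, a scaffold protein of synapses (mm10 chr4:127169204-127237022), had 7.32, 6.93 and 8.13 FPKM in the C lines, against 23.9, 21.5, 27.8 and 21.2 FPKM in the G and N lines (log2 difference -1.53 ± 0.13, adjusted p = 0.00640). Tesc, which encodes the calcium-binding protein tescalcin (mm10 chr5:118027743-118061878), had 11.3, 10.5 and 12.0 FPKM in the C lines, against 31.0, 30.3, 38.4 and 24.4 FPKM in the G and N lines (log2 difference -1.37 ± 0.16, adjusted p = 0.0240). For both, ESC-1 was nearer to the C lines, though above every one of them, and ESC-2 was nearer to the others. ESC-1 and ESC-2 had 10.6 and 23.7 FPKM of Dlgap3, and 18.5 and 34.3 FPKM of Tesc.

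Acacb, the acetyl-CoA carboxylase whose product limits fatty acid oxidation in mitochondria, was lower by a log2 difference of -1.02 ± 0.14 (adjusted p = 0.0425, limma), with 5.28 ± 0.584 FPKM in C lines and 11.7 ± 1.15 FPKM in G and N lines. Acrbp, which encodes the proacrosin-binding protein of sperm, had 3.34 ± 0.976 FPKM in C lines and 11.4 ± 1.55 FPKM in G and N lines (log2 difference -1.53 ± 0.20, adjusted p = 0.0373). The histone pseudogene Hist1h2al was listed at 0, 0.107 and 0.307 FPKM in C1, C2 and C3, against 7.07, 4.27, 7.51 and 5.57 FPKM in G1, G3, N4 and N6 (log2 difference -2.63 ± 0.21, adjusted p = 0.00601), and its reads can be shared with other histone genes. Dapp1, Mmrn2 and 2410141K09Rik, which the naming rule leaves out, made up the rest. Mmrn2, an extracellular matrix protein of endothelium, had 0.385 ± 0.0633 FPKM in C lines and 4.55 ± 1.68 FPKM in G and N lines. Hist1h2al and Mmrn2 passed the filter on low values only through the G and N lines. ESC-1 lay nearer to the C lines for 7 of the 9 lower genes, and ESC-2 for 3 of the 9. Among the called genes named by rule, Dlgap3 stayed past the threshold in 18 of 22 alternatives, Hist1h2al in 18 of 21, Tesc in 13, Gli2 in 12, Clgn in 12, Acrbp in 11, Acacb in 10 and Rsrp1 in 9.

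**Figure D2:**
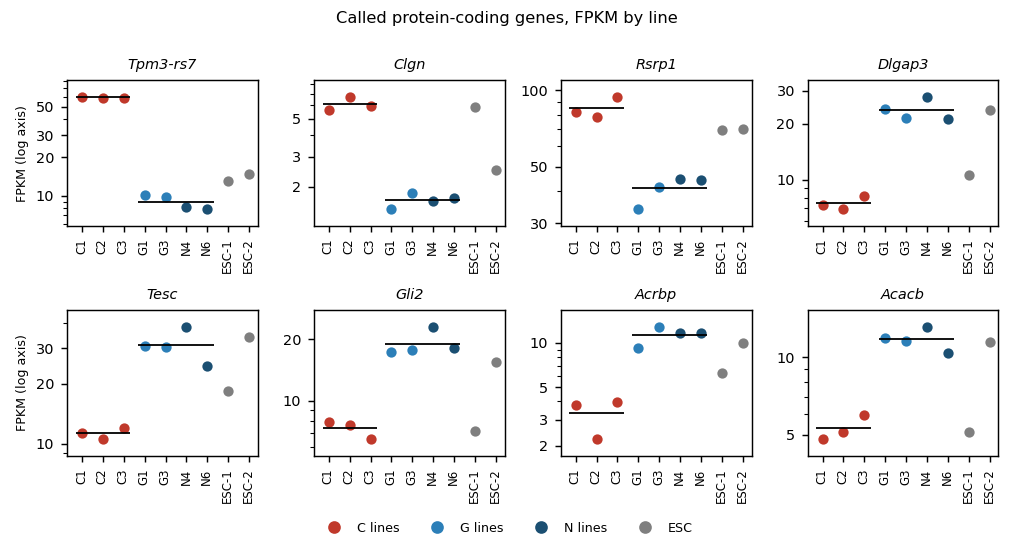
FPKM on a log axis of 8 called protein-coding genes in C lines, G lines, N lines and the ESC libraries, 1 point per library, with horizontal lines at the means of the 3 C lines and of the 4 G and N lines. The C lines lie above the G and N lines for Tpm3-rs7, Clgn and Rsrp1 and below them for the other 5, and ESC-1 and ESC-2 fall on different sides for several genes, such as 7.16 and 15.4 FPKM of Gli2.

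No core pluripotency factor was called against G and N lines together. Pou5f1 had 839, 762 and 1127 FPKM in C1, C2 and C3, against 939, 752, 944 and 876 FPKM in G1, G3, N4 and N6 (log2 difference 0.04 ± 0.15), and Nanog and Sox2 had differences of -0.22 ± 0.21 and -0.21 ± 0.11. None of the 18 tested core genes and none of the 20 tested naive genes was called, beside 0.148% of all tested genes, a share at which such a count says nothing about these lists. The median differences of these lists were -0.07 and -0.11. Without overlap, 6 of 20 naive genes were lower and 1 was higher in C lines, and 3 of 18 core genes were lower and 1 was higher, beside 7.33% lower and 7.48% higher over all tested genes.

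Esrrb, a nuclear receptor that sustains the naive state, had 145, 141 and 96.5 FPKM in C1, C2 and C3, against 219, 188, 229 and 191 FPKM in G1, G3, N4 and N6 (log2 difference -0.71 ± 0.16, adjusted p = 0.132, limma). Klf4 had 63.2, 66.4 and 40.2 FPKM in the C lines, against 91.2, 92.6, 130 and 79.6 FPKM in the G and N lines (log2 difference -0.80 ± 0.22, adjusted p = 0.168). Neither passed the adjusted threshold, although every C line lay below every other line. Prdm14, which represses FGF signalling and DNA methylation in mouse ESC, had 6.19, 6.74 and 6.79 FPKM in C lines, against 12.8, 15.9, 18.2 and 11.2 FPKM in G and N lines (log2 difference -1.01 ± 0.17, adjusted p = 0.0917). It was called lower when C3 was left out (-1.04 ± 0.19, adjusted p = 0.0346, limma), beside 1.08% of all tested genes. The homeobox gene Gbx2, with 5.99 ± 0.821 and 13.4 ± 4.26 FPKM, and Fgf4, with 47.0 ± 6.87 and 84.3 ± 18.9 FPKM in C lines and in G and N lines (SD, n = 3 and 4), had the same direction. Tdh, the threonine dehydrogenase of mouse ESC, had 121, 105 and 78.5 FPKM in C lines, against 242, 168, 196 and 151 FPKM in G and N lines (adjusted p = 0.129). ESC-1, at 79.3 FPKM of Tdh, lay with the C lines and ESC-2, at 154 FPKM, with the others.

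Tbx3, Dppa3, Zfp42, Dnmt3b, Dnmt3l, Gata4 and Gata6 overlapped between the groups. Tbx3 had 77.8, 81.7 and 14.5 FPKM in C1, C2 and C3, against 71.3, 44.3, 39.8 and 25.2 FPKM in G1, G3, N4 and N6, so C3 was the lowest line and C1 and C2 the highest. Dppa3, a gene of the germ line and the early embryo, ranged from 17.3 to 27.7 FPKM in C lines, against 7.65 to 49.0 FPKM in G and N lines. Zfp42 had 234 ± 26.4 FPKM in C lines and 189 ± 27.5 FPKM in G and N lines. The methyltransferase Dnmt3b averaged 47.5 ± 7.62 FPKM in C lines and 57.4 ± 25.2 FPKM in G and N lines. Its partner Dnmt3l had 128, 116 and 469 FPKM in C1, C2 and C3, against 139, 45.1, 80.0 and 143 FPKM in G1, G3, N4 and N6, and the high value was C3 alone. Gata4 and Gata6, regulators of primitive endoderm, stayed under 4 FPKM in all 7 lines, with the highest values in C3 (2.66 and 3.8 FPKM). Cdx2, the trophoblast regulator, did not pass the filter on low values.

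**Figure D3:**
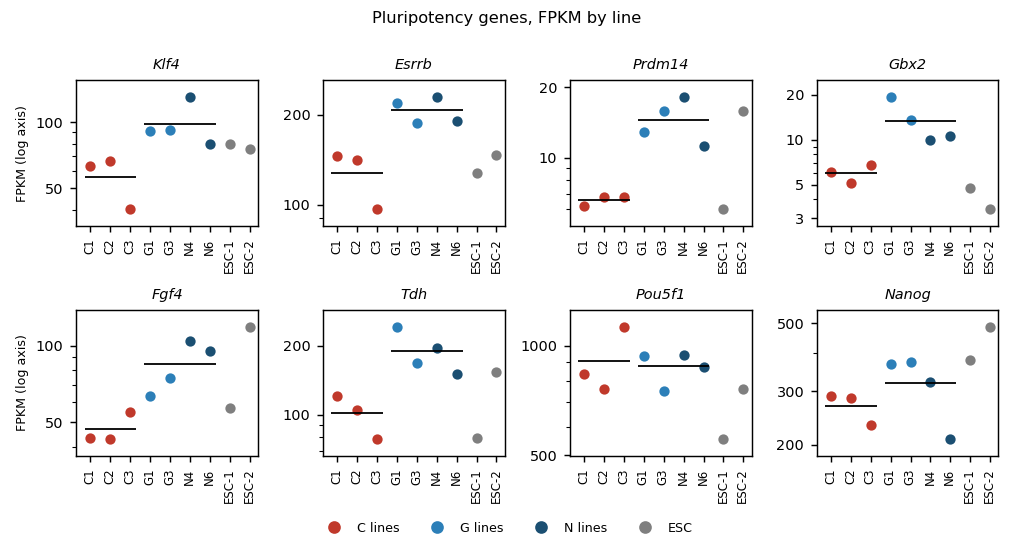
FPKM on a log axis of 8 pluripotency genes in C lines, G lines, N lines and the ESC libraries, 1 point per library, with horizontal lines at the means of the 3 C lines and of the 4 G and N lines. Klf4, Esrrb, Prdm14, Gbx2, Fgf4 and Tdh lie lower in each C line than in each G and N line, while Pou5f1 and Nanog overlap.

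Several germ line genes were higher in C lines than in the N lines, with the G lines in between. The difference between the G and N comparisons was not tested, and both use the same C lines. Promoters of 4 of these genes are shown because the genes were called together against the N lines. Of the 23 tested members of the germ cell list, 22 have a promoter in the RefSeq table (GRCm38.p6, the build also called mm10, 250 bases before to 50 bases after the start); Piwil2 has none there. Below are those of Stra8 (chr6:34920698-34920997, plus strand), the retinoic acid target that starts meiosis, Dazl (chr17:50293571-50293870, minus strand), an RNA-binding protein of germ cells, Sycp1 (chr3:102936051-102936350, minus strand), a synaptonemal complex protein, and Slc25a31 (chr3:40708621-40708920, plus strand), an ADP/ATP carrier of the germ line. They are written 5′ to 3′ on the strand of the gene, in lower case, with capitals for the E-box CACGTG and for GGCGGGAA or its reverse complement TTCCCGCC.
Stra8: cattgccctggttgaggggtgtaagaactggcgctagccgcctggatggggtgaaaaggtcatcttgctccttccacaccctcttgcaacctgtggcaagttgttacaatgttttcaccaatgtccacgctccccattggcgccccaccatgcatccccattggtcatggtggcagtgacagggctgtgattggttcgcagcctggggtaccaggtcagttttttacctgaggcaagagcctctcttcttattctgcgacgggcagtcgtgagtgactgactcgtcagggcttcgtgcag
Dazl: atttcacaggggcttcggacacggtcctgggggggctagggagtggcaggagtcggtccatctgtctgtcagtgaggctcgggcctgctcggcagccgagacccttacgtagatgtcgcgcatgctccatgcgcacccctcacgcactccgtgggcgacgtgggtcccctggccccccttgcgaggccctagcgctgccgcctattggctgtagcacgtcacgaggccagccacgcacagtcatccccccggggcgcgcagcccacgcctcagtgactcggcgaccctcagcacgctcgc
Sycp1: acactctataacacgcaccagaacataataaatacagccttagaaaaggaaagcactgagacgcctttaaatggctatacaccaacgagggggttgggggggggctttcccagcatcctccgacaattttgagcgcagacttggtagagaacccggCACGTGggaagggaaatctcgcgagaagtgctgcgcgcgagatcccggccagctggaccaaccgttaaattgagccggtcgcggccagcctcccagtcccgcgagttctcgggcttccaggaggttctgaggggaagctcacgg
Slc25a31: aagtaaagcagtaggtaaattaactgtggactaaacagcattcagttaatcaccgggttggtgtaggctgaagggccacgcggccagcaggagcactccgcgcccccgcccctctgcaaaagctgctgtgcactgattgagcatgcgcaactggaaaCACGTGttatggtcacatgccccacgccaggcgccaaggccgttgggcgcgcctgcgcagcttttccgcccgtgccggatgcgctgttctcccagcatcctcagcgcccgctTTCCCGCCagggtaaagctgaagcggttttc
An E-box stands in 9 of the 22 promoters, beside 7.15% of all 32851 promoters in the table, and GGCGGGAA on either strand stands in 5 of the 22, beside 2.19%. The promoters of Stra8 and Dazl hold neither. Of the 12 members called higher in C lines than in N lines, 3 hold the E-box and 3 hold GGCGGGAA. Both motifs were searched on both strands and can share at most 1 base. These matches describe the letters only.

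Stra8 had 164, 173 and 137 FPKM in C1, C2 and C3, against 22.7, 60.6, 21.5 and 15.1 FPKM in G1, G3, N4 and N6, and 164 and 125 FPKM in ESC-1 and ESC-2. All C lines were at the level of the ESC libraries and all other lines were below it. Against the G and N lines together, the log2 difference was 2.55 ± 0.40 with an adjusted p of 0.0768 in limma, so it was not called. Dazl had 42.0, 53.6 and 21.7 FPKM in the C lines, against 16.0, 21.5, 4.66 and 3.81 FPKM in the G and N lines, and 101 and 86.2 FPKM in the ESC libraries (log2 difference 1.90 ± 0.59, adjusted p = 0.206). For Dazl, C3 lay just above G3, and the N lines were lowest. Sycp1 had 4.85, 5.36 and 3.81 FPKM in the C lines, against 2.84, 3.57, 1.33 and 1.11 FPKM in the G and N lines.

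Over the germ cell list, 8 of 23 tested genes were higher in C lines without overlap and 1, Prdm1, was lower, beside 7.48% and 7.33% of all tested genes. Tex19.2, one of the 8, passed the filter on low values only with the C lines, as G3 alone of the others reached 1 FPKM. The median difference of the list was 0.96, against -0.01 over all tested genes, and no member was called. The order was the same in the mean level of the list: 3.81, 3.88 and 3.74 on the log2(FPKM + 1) scale in C1, C2 and C3, against 3.06 and 3.50 in G1 and G3, 2.28 and 2.40 in N4 and N6, and 4.01 and 3.88 in ESC-1 and ESC-2. When the C lines were set against the N lines alone, in a fit where C, G and N lines share 1 estimate of the spread, 12 of the 23 were called higher and 0 lower, beside 265 higher genes of 13530 (1.96%, or 2.35% in either direction). At an unadjusted p under 0.05, 19 of the 23 were higher in that limma fit, beside 1471 of 13530 genes. For the fits with a line left out, given below, the counts over all tested genes are not reported here. Against the G lines alone, no member was called, beside 0.177% of all tested genes (11 higher, 0.0813%, and 13 lower, 0.0961%). The count against N lines was 1 without C1, 5 without C2, 14 without C3, 0 without N4 and 1 without N6, with 15 to 19 members at an unadjusted p under 0.05 in these fits, and 9 without either G line.

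Among the 12, named after their values were seen, Stra8 (log2 difference 3.06 ± 0.38, adjusted p = 0.0109) and Dazl (2.85 ± 0.36, adjusted p = 0.0114) had the largest differences in C lines against N lines. Tex19.1, which acts against retrotransposons in germ cells and placenta, had 153, 147 and 78.1 FPKM in C1, C2 and C3, against 72.2, 69.6, 26.6 and 34.4 FPKM in G1, G3, N4 and N6. Its neighbour Tex19.2 had 6.47, 5.47 and 2.24 FPKM in the C lines, against 0.963, 1.32, 0.156 and 0.355 FPKM in the G and N lines. Mael, a protein of the piRNA pathway, had 16.7, 20.4 and 23.9 FPKM in the C lines, against 9.85, 21.3, 3.20 and 5.14 FPKM in the G and N lines. For Mael, G3 lay with the C lines and both N lines were low. Asz1, Tex101, Slc25a31, Rpl10l, Tuba3a and Tuba3b completed the set, of which Tuba3a and Tuba3b are near copies whose reads can be shared. Rhox5, an X-linked homeobox gene of the list that was not tested, had 502, 365 and 552 FPKM in C lines, against 118, 299, 11.6 and 24.4 FPKM in G and N lines.

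Genes of the two-cell embryo were high in C and G lines and low in N lines. Zscan4c, a marker of two-cell-like cells, had 86.9, 68.3 and 49.2 FPKM in C1, C2 and C3, against 54.8, 35.7, 3.03 and 3.31 FPKM in G1, G3, N4 and N6, and 43.5 and 15.2 FPKM in ESC-1 and ESC-2. The N lines were below all other libraries, and G1 was above C3. The list had a median difference of 1.31 over 14 tested genes, 3 of them higher in C lines without overlap (7.48% of all tested genes) and none called. Against the N lines alone, 12 of the 14 were called higher in C lines, beside 1.96% of all tested genes. For Zscan4c this difference was 4.01 ± 0.27 (adjusted p = 0.000963, limma), and for Gm4340, another gene of the two-cell stage, it was 4.20 ± 0.20 (adjusted p = 0.000254). Tcstv3, counted among the 3 and among the 12, reached 1 FPKM in G1 alone of the G and N lines. It thus passed the filter on low values only with the C lines. Without single lines the count was 5 to 12. The count was 5 without N4 and 5 without N6, which leave 1 N line that is assumed to vary like the others, 7 without C1 and 8 without C2. The Zscan4 and Usp17l copies are near identical, so their counts are not independent. In bulk RNA, fewer two-cell-like cells and less RNA per such cell cannot be told apart.

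Hox genes, which pattern the body axis, were low in all lines: 8 of 31 passed the filter on low values, and 5 of these 8 reached 1 FPKM in C lines but in no G or N line. Such members passed only through the C lines, so no count of differences is given for this list. Hoxa5, one of them, had 1.42, 1.44 and 1.79 FPKM in C1, C2 and C3, against 0.609, 0.277, 0.115 and 0.112 FPKM in G1, G3, N4 and N6, and all C lines lay above all other lines.

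Of 15 tested genes of retinoic acid metabolism and response, 6 were higher in C lines without overlap (7.48% of all tested genes) and 1 was lower (7.33%). Of the 6, Aldh1a3 passed the filter only through the C lines. The list includes Stra8, and its median difference was 0.52. Stra6, a receptor for retinol uptake, had 2.06 ± 0.233 FPKM in C lines and 0.767 ± 0.526 FPKM in G and N lines (SD, n = 3 and 4). The exception, the receptor Rara, had 21.2, 19.9 and 30.3 FPKM in C1, C2 and C3, against 33.9, 34.5, 52.0 and 45.7 FPKM in G1, G3, N4 and N6. Neither Stra6 nor Rara was called against G and N lines together, and Rara was called lower against the N lines alone (-1.03 ± 0.19, adjusted p = 0.0421, limma).

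**Figure D4:**
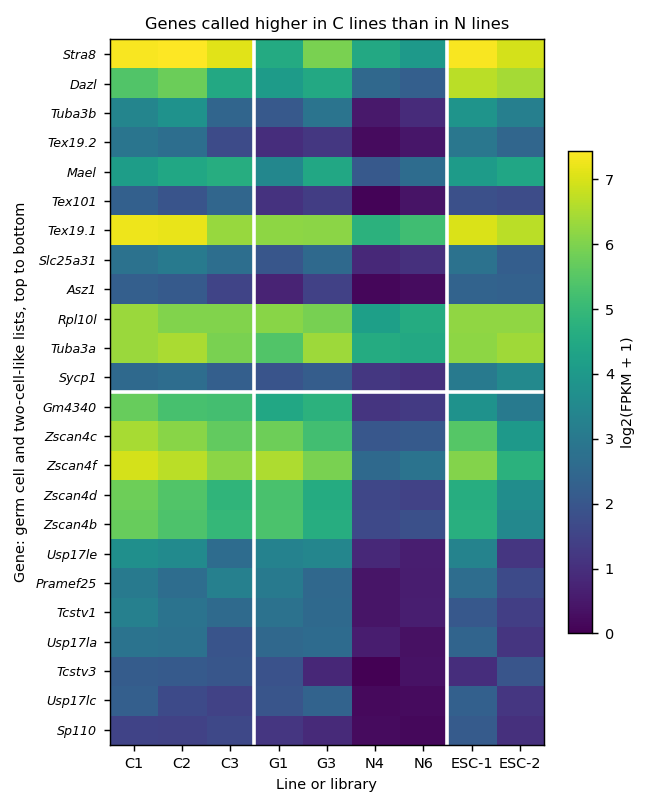
Heat map of log2(FPKM + 1) in C lines, G lines, N lines and the ESC libraries, for the members of the germ cell (12) and two-cell-like (12) lists that were called higher in C lines than in N lines alone. Rows were chosen by that call, and the column of each line shows its own level: N4 and N6 are dark in most rows, for example with 3.03 and 3.31 FPKM of Zscan4c.

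Egr1, Spry4 and Dusp5, all tied to ERK signalling, were higher in C1 and C2 than in C3. Egr1, an immediate early transcription factor induced by ERK signalling, had 46.9, 48.6 and 0.467 FPKM in C1, C2 and C3, against 0.343, 0.288, 0.103 and 0.0880 FPKM in G1, G3, N4 and N6, and 31.3 and 3.84 FPKM in ESC-1 and ESC-2. C1, C2 and ESC-1 were high, and C3 was near the low level of the G and N lines. Egr1 passed the filter only through C1 and C2. The log2 difference was 3.66 ± 1.12 (adjusted p = 0.205, limma) and not called. Without C3 it was 5.34 ± 0.16 (adjusted p = 7.8e-05). Spry4, a feedback inhibitor of ERK signalling, had 25.3, 29.2 and 9.53 FPKM in the C lines, against 13.5, 2.0, 1.83 and 5.42 FPKM in the G and N lines. Dusp5, a phosphatase of ERK, had 16.3, 17.8 and 6.73 FPKM in the C lines, against 6.77, 4.85, 5.38 and 6.69 FPKM in the G and N lines. Spry4 and Dusp5 were at 27.2 and 16.8 FPKM in ESC-1, but at 0.973 and 6.3 FPKM in ESC-2.

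Of 20 tested genes of the FGF and ERK response, 5 were higher in C lines without overlap (7.48% of all tested genes) and 1, Fgf4, was lower (7.33%), and the median difference was 0.31. Of 17 tested immediate early genes, 5 were higher without overlap (7.48% of all tested genes) and none lower, with a median of 0.37. The 2 lists share Egr1, which is among the 5 of each, so these counts are not independent. Egr1 passed the filter only through C1 and C2, and its separation rests on 0.467 FPKM in C3 against 0.343 FPKM in G1. The mean level of the immediate early list was 3.86, 3.84 and 3.61 on the log2(FPKM + 1) scale in C1, C2 and C3, against 3.15, 3.18, 3.27 and 3.29 in G1, G3, N4 and N6. That of the FGF and ERK list was 4.08, 4.01 and 3.69 in the C lines, against 3.53, 3.19, 3.23 and 3.38 in the G and N lines. C3 was the lowest C line in both and lay above every G and N line. Zfp36, which destabilises mRNAs of cytokines and immediate early genes, had 11.0, 12.9 and 9.44 FPKM in C1, C2 and C3, against 5.17, 5.26, 4.58 and 4.53 FPKM in G1, G3, N4 and N6, with 11.9 and 4.36 FPKM in ESC-1 and ESC-2. All 3 C lines were above the others (log2 difference 1.03 ± 0.15, adjusted p = 0.0557, limma). Without C3, 4 immediate early genes were called higher in C lines (Egr1, Jun, Zfp36 and Ier2), beside 153 of 13530 genes (1.13%). Dusp5 was called in the same fit (1.39 ± 0.16, adjusted p = 0.0173).

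Fibroblast genes were low in C1 and C2, and C3 lay with the G and N lines. Col1a1, a chain of type I collagen, had 2.68, 3.76 and 44.0 FPKM in C1, C2 and C3, against 24.9, 22.5, 27.5 and 23.8 FPKM in G1, G3, N4 and N6, and 1.28 and 0.970 FPKM in ESC-1 and ESC-2. Lox, which cross-links collagen, had 0.0401, 0.112 and 16.4 FPKM in the C lines, against 16.2, 6.27, 11.3 and 9.76 FPKM in the G and N lines. The 7 fibroblast markers summed to 4.56, 4.96 and 76.2 FPKM in C1, C2 and C3, against 40.9 to 53.3 FPKM in G and N lines, 3.36 and 3.23 FPKM in ESC-1 and ESC-2, and 2674 and 10270 FPKM in the 2 fibroblast libraries of the series. Of these markers, Dcn and Lum were at or near 0 in all 7 lines (at most 0.10 FPKM).

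Over the fibroblast list, the median difference was -0.72 for 23 tested genes. No member was called, 1 (Fn1) was lower without overlap, beside 7.33% of all tested genes, and none was higher. Without C3, 11 of the 23 were called lower in C lines, beside 146 of 13530 (1.08%), including Col1a2 (-3.06 ± 0.24, adjusted p = 0.00571, limma) and Postn (-1.96 ± 0.22, adjusted p = 0.0173). Of the 11, Col1a2, Col3a1, Postn and Lox were below 1 FPKM in both C1 and C2. Apart from C3, these met the filter on low values only through the G and N lines. With the mean level of this list as a covariate, 6 genes were called higher (0.0443%) and 4 lower (0.0296%) in C lines against G and N lines, 0.0739% in all, of which 8 were among the 20 called without it. The part of fibroblast RNA in the results for other genes was not otherwise tested.

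Mitochondrial transcripts were higher in C1 and C2 than in the other 5 lines. They held 1.76%, 1.91% and 0.575% of the summed FPKM in C1, C2 and C3, against 1.13%, 1.10%, 0.783% and 0.950% in G1, G3, N4 and N6, and 3.65% and 3.81% in ESC-1 and ESC-2. mt-Nd5, a subunit of respiratory complex I, had 428, 443 and 142 FPKM in the C lines, against 198, 185, 115 and 147 FPKM in the G and N lines. The 13 mitochondrial genes had a median difference of 0.63. None of them separated the groups, beside 14.8% of all tested genes in either direction. Without C3, 8 of the 13 were called higher in C lines, beside 1.13% of all tested genes. The noncoding transcripts AY036118 and Yam1 had 2159, 2606 and 908 FPKM and 763, 972 and 348 FPKM in C1, C2 and C3, against 4413 to 5924 FPKM and 1794 to 2555 FPKM in G and N lines. Both were lowest in C3, and their part in the other differences was not tested.

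Glycolysis and amino acid response genes were highest in C3 and did not separate the groups. Ldha, lactate dehydrogenase A, had 681, 649 and 1781 FPKM in C1, C2 and C3, against 499, 657, 1124 and 953 FPKM in G1, G3, N4 and N6. Bnip3, a target of the hypoxia response, had 40.9, 40.2 and 275 FPKM in the C lines, against 24.1, 62.7, 125 and 126 FPKM in the G and N lines. The mean level of the 27 tested glycolysis and hypoxia genes was 6.32, 6.25 and 7.82 on the log2(FPKM + 1) scale in the C lines, against 5.93, 6.51, 7.12 and 6.85 in the G and N lines. The 26 tested genes of the amino acid and ER stress response had means of 4.86, 4.87 and 5.91 in the C lines, against 4.88, 5.33, 5.47 and 5.75 in the G and N lines. C3 was the highest line for both lists, followed by the N lines. No member of either list separated the groups, beside 14.8% of all tested genes in either direction.

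**Figure D5:**
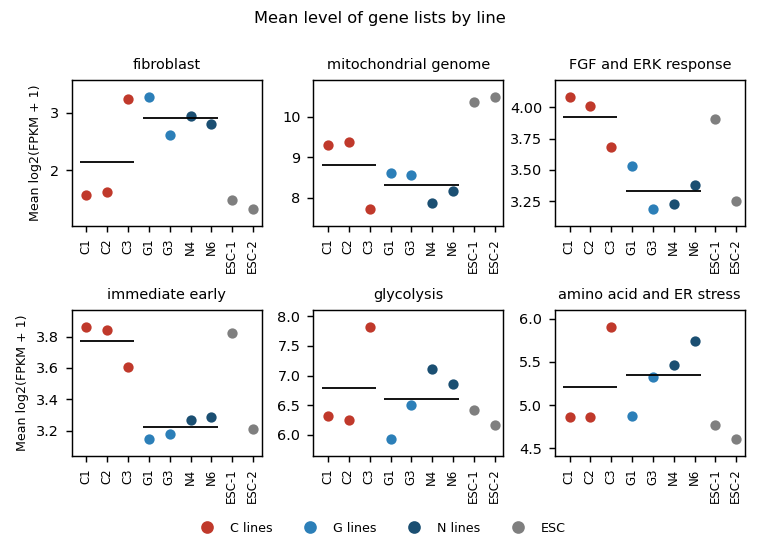
Mean log2(FPKM + 1) of 6 gene lists in C lines, G lines, N lines and the ESC libraries, 1 point per library, with horizontal lines at the means of the 3 C lines and of the 4 G and N lines. C1 and C2 are low for fibroblast genes (1.58 and 1.62) while C3 is at 3.23, and C3 is the highest line for glycolysis at 7.82.

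Other genes were separate between the groups without being called. Higher in every C line were Crxos, a homeobox gene, with 17.0 ± 7.32 FPKM in C lines and 1.71 ± 1.33 FPKM in G and N lines, and H2-Eb1, a class II histocompatibility gene, with 11.3, 12.7 and 13.2 FPKM in C1, C2 and C3, against 4.77, 5.16, 1.94 and 1.32 FPKM in G1, G3, N4 and N6. The class I genes H2-D1 and H2-K1, chosen after their values were seen, had 18.8 ± 1.6 and 22.4 ± 3.61 FPKM in C lines, against 9.46 ± 1.42 and 11.6 ± 2.88 FPKM in G and N lines. Of the 16 tested genes of the interferon response and antigen presentation list, these 2 were higher without overlap (7.48% of all tested genes). None was lower (7.33%), and the median difference of that list was -0.20. Of the genes named by the rule, Tinagl1 had 25.7 ± 5.21 and 7.01 ± 4.0 FPKM, Calcoco2, an autophagy receptor, 270 ± 82.8 and 78.7 ± 57.9 FPKM, and Tnfrsf22, a decoy receptor, 149 ± 30.8 and 50.3 ± 39.6 FPKM in C lines and in G and N lines. The pseudogene Rpsa-ps10 had 624, 591 and 778 FPKM in C1, C2 and C3, against 32.3, 556, 35.3 and 31.7 FPKM in G1, G3, N4 and N6, so G3 was like the C lines, and its reads can be shared with Rpsa. Apart from Rpsa-ps10, the adjusted p of these genes in limma ran from 0.0720 for H2-D1 to 0.222 for Tnfrsf22.

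Of 10 tested neural ectoderm genes, 3 were lower in C lines without overlap (7.33% of all tested genes) and 1 was higher (7.48%), with a median difference of -0.32. Olig2, a transcription factor of neural progenitors, had 1.07, 1.14 and 2.19 FPKM in C1, C2 and C3, against 4.75, 4.30, 19.3 and 7.01 FPKM in G1, G3, N4 and N6. Sox1, a neural marker, had 0.680, 0.566 and 1.23 FPKM in the C lines, against 3.69, 1.96, 7.27 and 4.52 FPKM in the G and N lines. Both were called lower against the N lines alone (-2.40 ± 0.40 and -1.91 ± 0.30, adjusted p = 0.0295 and 0.0237, limma), whereas Pax6, another neural regulator, had 1.65 ± 0.400 FPKM in C lines and 0.737 ± 0.20 FPKM in G and N lines. Pax6 was below 1 FPKM in every G and N line and passed the filter on low values only through the C lines. Sox1 reached 1 FPKM in C3 alone of the C lines, so it passed only with the G and N lines. Outside this list, Sfrp1, a secreted inhibitor of Wnt signalling, had 13 ± 2.92 and 40.1 ± 17.0 FPKM, and Ntn1, the guidance molecule netrin 1, had 4.11 ± 2.54 and 21.5 ± 9.83 FPKM in C lines and in G and N lines. Bahcc1 and Hist2h2bb had log2 differences of -1.47 ± 0.39 and -1.44 ± 0.23. None of the genes in this paragraph passed the adjusted threshold against G and N lines together.

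Meg3, the maternally expressed noncoding RNA of the Dlk1-Meg3 cluster, had 121, 103 and 132 FPKM in C1, C2 and C3, against 60.5, 55.5, 74.5 and 116 FPKM in G1, G3, N4 and N6, and 14.1 FPKM in both ESC-1 and ESC-2. Every CiPSC line was above both ESC libraries, and N6 lay among the C lines. H19, a maternally expressed growth-restraining RNA, had 259, 264 and 44.5 FPKM in the C lines, against 172, 34.8, 8.96 and 29.9 FPKM in the G and N lines. Peg10, a paternally expressed gene needed in the placenta, had 89.0, 89.5 and 81.4 FPKM in the C lines, against 87.8, 19.4, 12.5 and 29.3 FPKM in the G and N lines. G1 was at the level of the C lines for Peg10 and between C1 and C3 for H19. Of the 31 tested imprinted gene identifiers outside that cluster, 2 were higher in C lines without overlap and none lower, near the 7.48% and 7.33% of all tested genes, with a median of -0.03.

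Of the 37 lists, 26 had a median difference within 0.2 of 0, and 0 had a member called by limma against G and N lines together. Without C3, 16 lists had at least 1 called member, and most of these held only 1. In that fit 2.21% of all tested genes were called, a share per gene that cannot be set against a count of lists. The trophoblast markers summed to 4.58 to 8.01 FPKM in C lines, against 1.62 to 6.49 FPKM in G and N lines, and the mesoderm markers to 1.80 to 2.02 FPKM, against 0.663 to 1.43 FPKM. The 5 macrophage markers summed to 5.64 to 11.3 FPKM in C lines, against 6.86 to 17.3 FPKM in G and N lines. Nearly all of this was Cd68, at 5.54, 6.31 and 11.1 FPKM in C1, C2 and C3, against 10.5, 6.39, 17.3 and 10.9 FPKM in G1, G3, N4 and N6, while Ptprc was listed at 0 in all 7 lines and Lyz2, Csf1r and Tyrobp were at most 0.308 FPKM. Ribosomal protein, nuclear oxidative phosphorylation and replication genes had medians of 0.04, -0.11 and 0.06.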

How the data were processed

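RNA was isolated with the RNeasy Plus Mini Kit and made into libraries with the NEBNext Ultra kit, per the labels' protocols. Each library has its own deposited table of FPKM per gene, for which the authors used TopHat and Cufflinks with the mm10 build, per the submitters' processing notes. Tool versions, the gene models and the use of strand are not given in the sources used here, so reads of overlapping, antisense and near-identical genes cannot be separated. FPKM are not counts, so depth was only estimated, from genes whose deposited upper confidence bound is that of 1 fragment, relative to ESC-1.

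Genes on X and Y were left out by locus, which removed 546 identifiers, and genes with at least 1 FPKM in at least 2 of the 7 lines were kept, 13530 of 43436 identifiers. Of the tested identifiers, 98.9% matched the reference annotation. Values were taken as log2(FPKM + 1), with a pseudocount of 1, and tested with limma 3.58.1 (R 4.3.3) with an intensity trend and 5 residual degrees of freedom, adjusted by Benjamini-Hochberg over all tested genes. Calls needed an adjusted p under 0.05 and a log2 difference of at least 1. Tables and figures were made with Python 3.11.15, pandas 2.3.3, numpy 2.4.6 and matplotlib 3.10.9, and the fit was tested on simulated data.

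Named genes were 14 chosen regulators, then up to 12 genes per direction with separate groups and a mean of at least 5 FPKM in 1 group, without predicted genes and small RNAs, called genes first and then genes with an unadjusted p under 0.05, and up to 4 called members of each list. Genes named outside this rule were chosen after their values were seen. The comparison, the named regulators and the 37 gene lists were chosen with earlier results of these data known. Lists are described by counts and medians, and some of their members are not reported here. Alternatives changed the pseudocount, filter, scaling, libraries in the fit, prior, a block on the line number and each line in turn. A gene class filter, a fibroblast covariate and the counts against N lines with each line left out were added after seeing the data. The line numbers were not used to pair lines.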

Additional observations from a re-analysis of the deposited data

Results flagged for a closer look

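In the 4 G and N lines, 1 line stood far from the other 3 for 4 of the 74 values tested, by the share of the group's range taken up by the gap to the nearest line, set against the critical value of Dixon's test, and chance gives about 1 in 20 such groups. Rpsa-ps10 was high in G3, with a share of 0.963. Gli2 was high in N4, with a share of 0.871, while the other 3 lines lay close together. The mean of the parietal endoderm and basement membrane list was high in G1, with a share of 0.949. The mean of the metallothionein and oxidative stress list was low in G1, with a share of 0.864.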

How the results depend on the processing

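The comparison gave 11 genes higher and 9 lower in C lines. With no filter on low values the counts were 6 and 4, with a filter at 5 FPKM 6 higher, with X and Y genes kept 18 higher, with all 21 libraries in the fit 52 and 14, with the ESC libraries added 5 and 0 (limma, 1050 and 976 at an unadjusted p under 0.05), against N lines alone 265 and 53, in protein-coding genes of at least 1000 nt 6 higher, and with the fibroblast covariate 6 and 4. Leaving out each line in turn gave 3 to 153 higher and 0 to 146 lower genes, 0 to 14 germ cell genes and 5 to 12 two-cell-like genes higher in C lines than in N lines. With the line number as a replicate block the counts were 11 and 15, but the numbers do not pair the lines: the correlation of same-numbered deviations was 0.226 for C1 and G1 and -0.225 for C3 and G3. The cause of these changes was not tested. For the named genes, 689 values kept their direction and side of the threshold, 24 gained and 72 lost the call, and 21 changed sign, none of them in a called gene. Pou5f1 was -0.026 with quantile normalization, -0.021 against N lines alone, and between -0.13 and 0.15 with a line left out, below 0 without C3 and without G3 (-0.04). Tbx3 was -0.30 against G lines alone, -0.71 with the replicate block, -0.75 with the fibroblast covariate, and between -0.31 and 0.90 with a line left out, below 0 without C1 (-0.27), C2 and N6 (-0.13). Gata4 was 0.24 against N lines alone, 0.39 with the covariate, and between -0.36 and 0.17 with a line left out, above 0 without C1 (0.13), C2, G1 (0.03) and G3 (0.10). Dppa3 was -0.12 with the replicate block, -0.15 with the covariate, and between -0.0029 (without N4) and 0.84 with a line left out. Nanog was 0.042 against N lines alone, and Dnmt3b lay between -0.42 and 0.072 with a line left out, above 0 without N6. The estimated depth of C3, the lowest, limits its values for genes of low FPKM.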

Other observations

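Some transcripts were far higher in some CiPSC lines than in others. Certain of these patterns crossed the C, G and N names, and others set both G lines or both N lines apart. A search made after seeing the values, for transcripts with a gap of over 3 on the log2 scale that took up over 0.75 of the range, at least 10 FPKM at the top and at least 300 nt of exons, found 15. The pseudogenes Gm13370, Gm10240 and Gm10163 lay between 89.9 and 120 FPKM in all lines except N4, which had 6.48, 6.48 and 6.53 FPKM. Gm12411 and Gm15921 were also low in N4 alone, at 0.628 and 0.0989 FPKM, and all 5 were low in ESC-2 too. Gm4322 had 43.1 to 63.7 FPKM in C lines, against 78.0, 63.6, 0.773 and 0.904 FPKM in G1, G3, N4 and N6, and Gm12245 was listed at 0 in both N lines. Gm10320 had 20.2 and 15.3 FPKM in N4 and N6, and at most 0.156 FPKM in the other CiPSC lines. Gm5611 was low in the G lines alone among the CiPSC lines, at 0.468 and 0.553 FPKM. Rps3a3 reached 217 FPKM in G3 and at most 1.93 FPKM in the other 6 lines, and Rps26-ps1 reached 600 FPKM in G1 against at most 58.5 FPKM elsewhere. Vstm2b, a protein-coding gene, had 26.1 FPKM in N4 and at most 0.855 FPKM in the other lines. Reads of such pseudogenes can be shared with their parent genes.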
